A study of Homo sapiens with 6 samples.

Results

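Nascent DNA peaks were examined in the centromeric regions of chromosomes 2, 4, 8, 9, 18 and 20 in control and ERCC6L2-/- U2OS cells. U2OS is a human osteosarcoma cell line, and ERCC6L2 is a SNF2-family ATPase. The ERCC6L2-/- cells were clonal CRISPR/Cas9 lines, and which clone was sequenced is not given in the sources used here. Both genotypes received BrdU, a nucleoside analogue incorporated during replication, for 2 h, and DNA pulled down with an antibody against it was sequenced in 3 samples of each genotype. The authors merged the 3 samples of a genotype into 1 consensus list of peaks. A peak was a member when its midpoint fell, on hg38, in 91.8 to 94.7 Mb of chromosome 2, 49.0 to 52.0 Mb of chromosome 4, 43.9 to 46.1 Mb of chromosome 8, 42.9 to 45.6 Mb of chromosome 9, 15.3 to 21 Mb of chromosome 18 or 25.5 to 30.5 Mb of chromosome 20. These 21.5 Mb held 232 of the 10285 control peaks and 282 of the 8555 ERCC6L2-/- peaks, or 514 of 18840 in all. A peak was called shared if it had at least 1 base in common with a peak of the other list, and list-only (control-only or knockout-only) if it had none. Because each genotype has 1 merged list, replicate spread could not be measured, and the read depth was unknown. The 95% Wilson intervals below cover counting error only, and the two-sided Fisher's exact tests compare the peaks of lists, not the conditions.

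Human centromeres are built on alpha-satellite, a tandem repeat of AT-rich monomers. In many arrays the monomers alternate in type, and one type carries the CENP-B box, the sequence bound by the centromere protein CENP-B. CENP-B binding helps to hold centromeric chromatin together, and the same box recurs along an array at the spacing of the repeat. The centromeres of hg38 are modelled sequences rather than a contiguous assembly, so where exactly a peak sits in an array is approximate. Runs of alpha-satellite, found from the sequence itself, filled 78.7% of the 6 regions. They held 176 of the 232 control peaks and 235 of the 282 ERCC6L2-/- peaks.

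The box that was found most often under the peaks was the same on the 5 centromeres from which sequence is shown. It is given here with its 17 bases in capitals, because every later count of boxes refers to it and to its pattern, NTTCGNNNNANNCGGGN, in which N is any base.
most frequent CENP-B box: TTTCGTTGGAAACGGGA
It made up 77 of the 84 boxes under peaks of chromosome 2, 134 of 186 on chromosome 4, 418 of 470 on chromosome 9, 50 of 106 on chromosome 18 and 430 of 508 on chromosome 20. These counts add both lists, so a box under a shared place can be counted in each. The monomers below start at a box in the widest knockout-only peak that held one on each of these chromosomes. They are 1 example per chromosome. All were chosen to start at a box, so part of their likeness was set by the choice. Each is 1 monomer long, from the plus strand of hg38, with the box in capitals.
chr2:92653042-92653212: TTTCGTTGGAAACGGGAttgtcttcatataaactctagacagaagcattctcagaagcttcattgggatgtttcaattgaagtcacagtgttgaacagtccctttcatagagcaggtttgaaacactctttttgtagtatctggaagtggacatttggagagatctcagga
chr4:50848674-50848844: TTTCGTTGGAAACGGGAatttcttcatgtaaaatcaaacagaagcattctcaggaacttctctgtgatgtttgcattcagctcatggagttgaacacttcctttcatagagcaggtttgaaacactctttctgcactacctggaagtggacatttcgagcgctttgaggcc
chr9:44676379-44676549: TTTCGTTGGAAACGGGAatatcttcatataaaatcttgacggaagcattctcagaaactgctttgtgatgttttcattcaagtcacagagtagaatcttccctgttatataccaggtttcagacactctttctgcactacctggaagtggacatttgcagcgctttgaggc
chr18:16295319-16295489: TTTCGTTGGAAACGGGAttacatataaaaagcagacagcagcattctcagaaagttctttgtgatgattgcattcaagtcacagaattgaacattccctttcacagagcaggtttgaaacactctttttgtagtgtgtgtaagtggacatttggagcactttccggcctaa
chr20:27955793-27955963: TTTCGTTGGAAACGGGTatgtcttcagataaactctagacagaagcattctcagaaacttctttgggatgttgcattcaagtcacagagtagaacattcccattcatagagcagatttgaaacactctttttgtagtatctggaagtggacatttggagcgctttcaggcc
Identity between these 5 monomers ran from 78.4% (chromosomes 9 and 18) to 90.1% (chromosomes 2 and 20). The box in the monomer of chromosome 20 differed from the most frequent box at 1 base.

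The number of peaks differed widely between the centromeres and did not follow the size of the array. Chromosome 20 held 102 control and 100 ERCC6L2-/- peaks, chromosome 9 held 52 and 69, and chromosome 4 held 53 and 64. Chromosome 2 held 15 and 21, and chromosome 18 held 9 and 24. Chromosome 8 held 1 control and 4 ERCC6L2-/- peaks. The longest array, 5.4 Mb on chromosome 18, had 1 control peak in every 675 kb, whereas the 2.12 Mb array of chromosome 20 had 1 in every 32.1 kb. In the ERCC6L2-/- list the same arrays had 1 peak in every 245 kb and 30.3 kb.

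**Figure D1:**
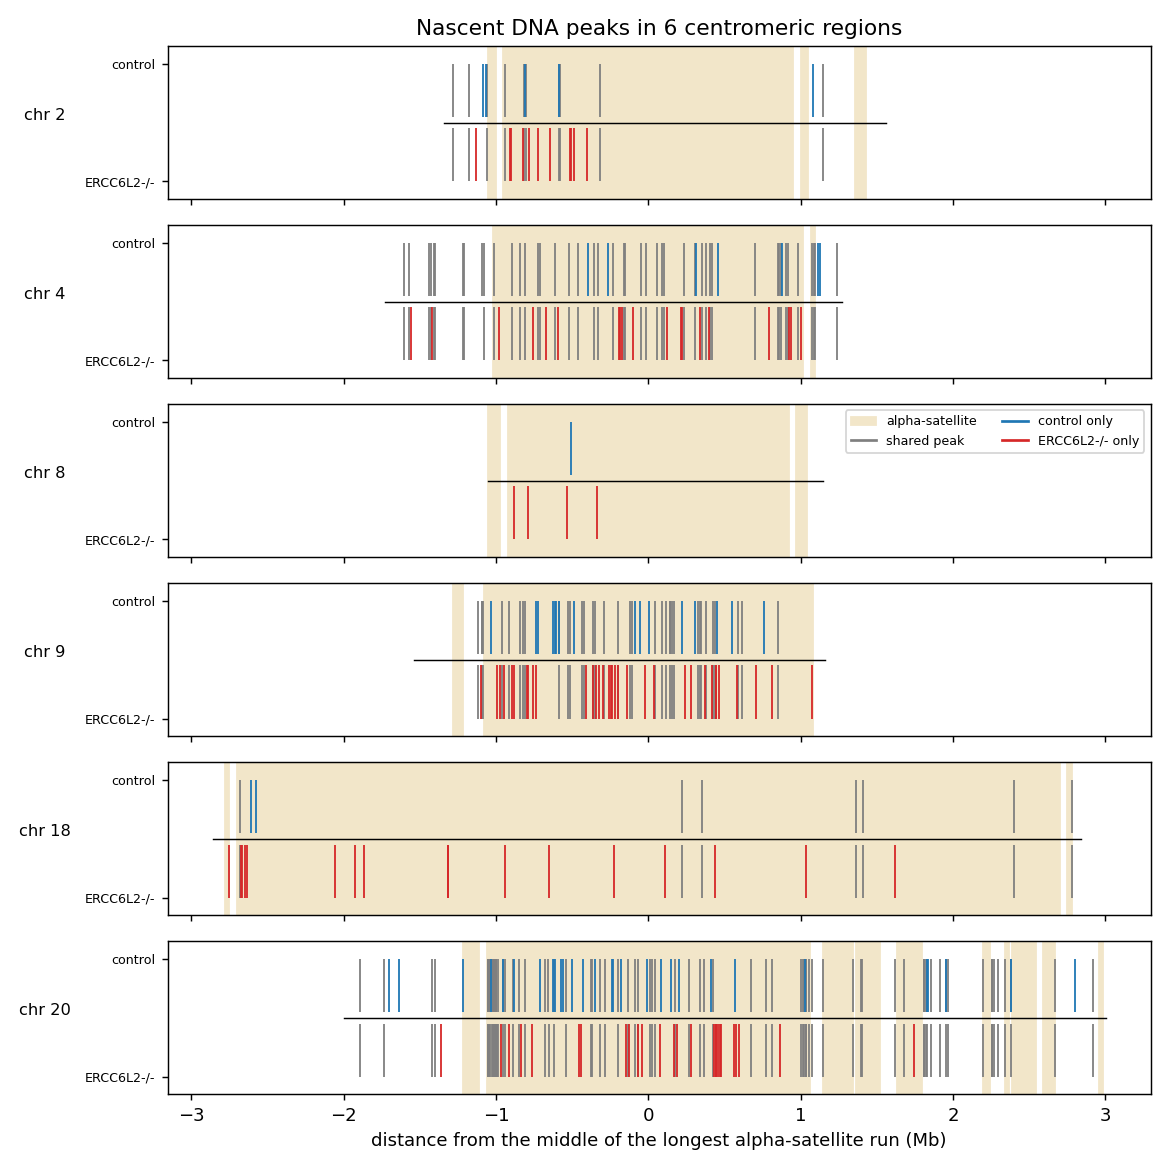
Peaks of the control list (above each line) and the ERCC6L2-/- list (below) in the 6 centromeric regions, by distance in Mb from the middle of the longest alpha-satellite run. Shading marks alpha-satellite, grey lines mark shared peaks, and blue and red lines mark peaks of 1 list only. The array of chromosome 18 carries 17 red lines against 2 blue ones, and the peaks of chromosome 2 within its main array lie in its first part.

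The ratio of ERCC6L2-/- to control peaks over the 6 regions was 1.22 (interval 1.02 to 1.45). It was 2.67 (1.26 to 5.64) on chromosome 18, 1.4 (0.73 to 2.68) on chromosome 2, 1.33 (0.928 to 1.9) on chromosome 9, 1.21 (0.841 to 1.73) on chromosome 4 and 0.98 (0.745 to 1.29) on chromosome 20. The interval left out 1 for chromosome 18 but not for the other 5. A ratio of 1 is not the background, since the whole lists held 8555 ERCC6L2-/- and 10285 control peaks. In alpha-satellite of the other autosomes and X the ratio was 1.66 (1.5 to 1.84). That value lay inside the interval of every chromosome but 20, whose interval was below it. These intervals treat the lists as separate counts, although a shared place was counted in both. The split of the list-only peaks alone is given below. On chromosome 8 the ratio was 4 from 5 peaks (0.601 to 26.6). Measured by bases under peaks instead of by number, the ratio was 1.19 over all and 2.9 on chromosome 18.

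**Figure D2:**
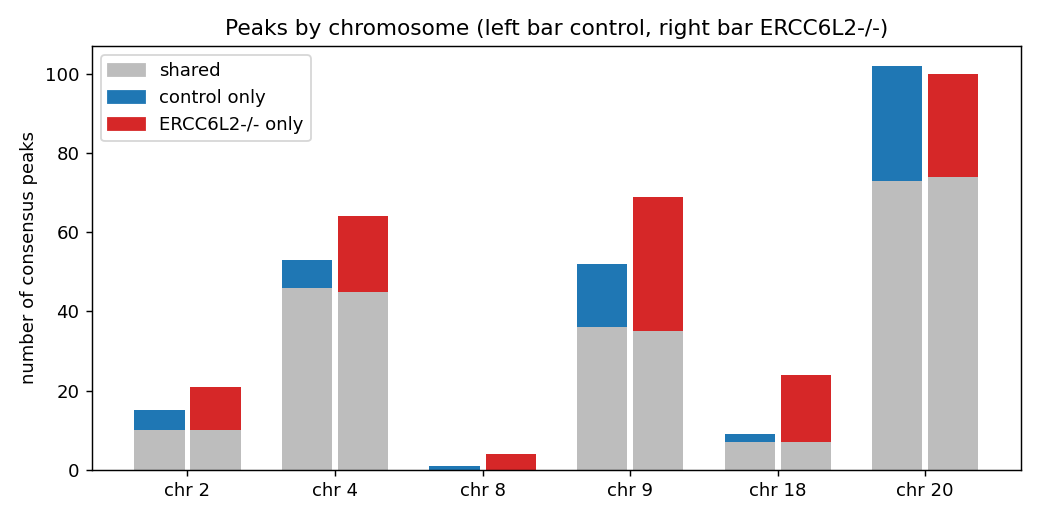
Number of consensus peaks on each chromosome, control on the left and ERCC6L2-/- on the right, split into shared (grey) and list-only (coloured) peaks. The shared part has nearly the same height in both bars of a chromosome, since the same places are counted from either side.

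Of the control members, 60 of 232 or 25.9% (20.7 to 31.9%) were control-only, against 32.8% of all control peaks of the genome. Of the ERCC6L2-/- members, 111 of 282 or 39.4% (33.8 to 45.2%) were knockout-only, against 18.9% of all ERCC6L2-/- peaks. The 6 regions thus stood below the genome in one list and above it in the other, and no test was made of these shares against the genome. Restricted to peaks at the ceiling of the score (the −log10 of a peak's p-value, written as infinite above 310.6), the shares were 9.35% and 7.69%, and the ratio of peak numbers was 0.972.

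**Figure D3:**
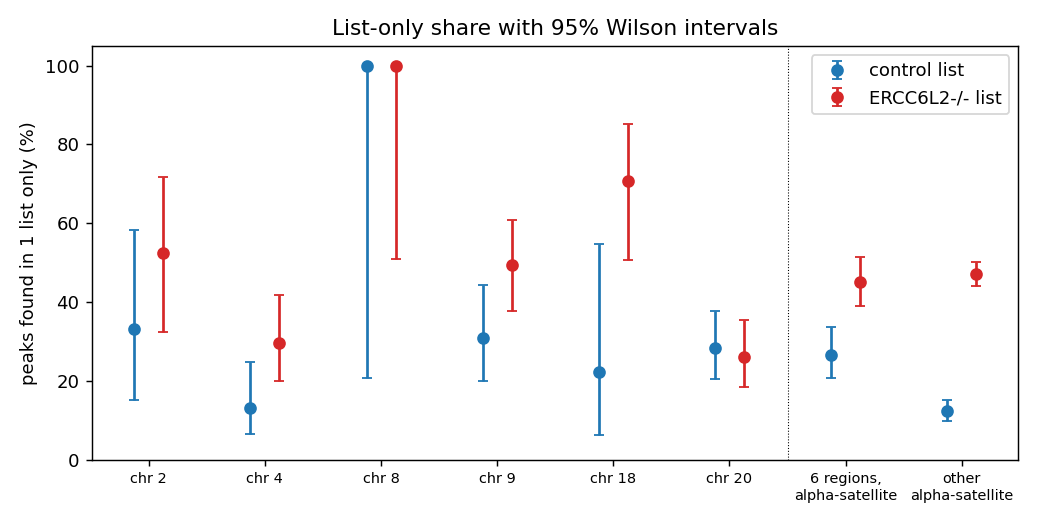
Share of peaks found in 1 list only (%), by chromosome, with 95% Wilson intervals. The 2 columns right of the dotted line pool alpha-satellite peaks of the 6 regions and of other chromosomes. The ERCC6L2-/- shares run from 26% on chromosome 20 to 100% on chromosome 8, where there were 4 peaks.

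Knockout-only peaks made up different shares of the ERCC6L2-/- list on different centromeres. In order, the shares were 4 of 4 on chromosome 8 (100%, 51 to 100%), 17 of 24 on chromosome 18 (70.8%, 50.8 to 85.1%), 11 of 21 on chromosome 2 (52.4%, 32.4 to 71.7%), 34 of 69 on chromosome 9 (49.3%, 37.8 to 60.8%), 19 of 64 on chromosome 4 (29.7%, 19.9 to 41.8%) and 26 of 100 on chromosome 20 (26%, 18.4 to 35.4%). No neighbours in this order differed past the threshold of 0.05 after adjustment over the 15 pairs of chromosomes. Of the other 10 pairs, 5 did. Chromosome 18 exceeded chromosome 20 (Fisher's exact test, adjusted p = 0.0011) and chromosome 4 (Fisher's exact test, adjusted p = 0.00491). Chromosome 9 exceeded chromosome 20 (Fisher's exact test, adjusted p = 0.0154). The 4 peaks of chromosome 8 exceeded chromosomes 20 and 4 (Fisher's exact test, adjusted p = 0.0224 and 0.0326). When only alpha-satellite peaks were counted, chromosome 18 still exceeded chromosomes 4 and 20 (Fisher's exact test, adjusted p = 0.0227 for each), and the other 3 pairs did not pass.

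In the control list the shares were 5 of 15 on chromosome 2 (33.3%, 15.2 to 58.3%), 16 of 52 on chromosome 9 (30.8%, 19.9 to 44.3%), 29 of 102 on chromosome 20 (28.4%, 20.6 to 37.8%), 2 of 9 on chromosome 18 (22.2%, 6.32 to 54.7%), 7 of 53 on chromosome 4 (13.2%, 6.55 to 24.8%) and the single peak of chromosome 8. None of the 15 pairs passed after adjustment. At an unadjusted p under 0.05, 2 pairs did, chromosome 4 below chromosome 9 (Fisher's exact test, p = 0.0354, adjusted p = 0.332) and below chromosome 20 (Fisher's exact test, p = 0.0442, adjusted p = 0.332).

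How the list-only peaks split by genotype was compared between chromosomes after these counts had been seen. Knockout-only peaks were 17 of the 19 list-only peaks on chromosome 18 (89.5%, 68.6 to 97.1%) and 26 of the 55 on chromosome 20 (47.3%, 34.7 to 60.2%). This was the only 1 of 15 pairs that passed (Fisher's exact test, adjusted p = 0.018). The shares on chromosomes 2, 4 and 9 were 68.8% (44.4 to 85.8%), 73.1% (53.9 to 86.3%) and 68% (54.2 to 79.2%). On chromosome 8 the share was 80% (37.6 to 96.4%). The intervals of chromosomes 4, 9 and 18 left out an equal split, and those of chromosomes 2, 8 and 20 did not. An equal split is not the background, since the genome had 1614 knockout-only and 3371 control-only peaks. Alpha-satellite of the other autosomes and X had 471 and 74, or 6.36 knockout-only peaks per control-only peak. That figure was 8.5 on chromosome 18 and 0.897 on chromosome 20 (1.19 in its alpha-satellite). These figures were not tested against each other.

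Chromosome 18 was the sparsest of the arrays with more than a few peaks, and 17 of its 24 ERCC6L2-/- peaks overlapped no control peak. All 7 shared places were in alpha-satellite, and 13 of the 17 knockout-only peaks had under 50% of their 50-base words, taken along the peak 1 base at a time, anywhere under a control peak of the genome. Their median gap to the nearest control peak was 328 kb, and 11 of the 17 lay more than 100 kb from one. The longest stretch of the array without a control peak was 2797 kb (chr18:15584102-18381294), and the ERCC6L2-/- list had 9 peaks there. The longest without an ERCC6L2-/- peak was 783 kb (chr18:19778195-20561636), and it held 0 control peaks. Each stretch was picked because 1 list had no peak in it, so part of the contrast was set by the choice. With the array cut into 5 equal parts from its start, knockout-only peaks numbered 7, 4, 3, 2 and 0, and 1 more lay in a short run beside the array. Rows of knockout-only peaks were counted with no shared peak between them and with gaps of at most 100 kb, and the longest here was 4 peaks over 34.8 kb (chr18:15488538-15523355) with 11 CENP-B boxes. The widest knockout-only peak, 2235 bases at chr18:16295280-16297514 with a score of 177 and 7 boxes, lay 711 kb from the nearest control peak. The widest shared peak was 2503 bases in the control list (chr18:20561609-20564111) and 2528 bases in the ERCC6L2-/- list (chr18:20561637-20564164), at the ceiling of the score in both. The widest control-only peak, 1116 bases (chr18:15582986-15584101), had 84.2% of its words under ERCC6L2-/- peaks. One of the 17 knockout-only peaks was at the ceiling, against 4 of the 7 shared ERCC6L2-/- peaks.

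On chromosome 20 the lists had nearly equal numbers of list-only peaks, but these fell in different parts of the array. In 5 equal parts of the 2.12 Mb array, control-only peaks numbered 4, 9, 5, 2 and 1, and knockout-only peaks 4, 2, 7, 10 and 1. The second part thus held 9 control-only and 2 knockout-only peaks, and the fourth held 2 and 10. This contrast was seen in the counts and was not tested. With gaps of at most 100 kb, the longest row of knockout-only peaks of any of the 6 chromosomes lay here, 9 peaks over 164 kb (chr20:27927383-28091525) with 26 boxes. Their scores ran from 66.9 to the ceiling, with 1 at the ceiling, and 1 control peak, itself control-only, lay within the span. The widest of the 9, and the widest knockout-only peak of the chromosome, was 2597 bases (chr20:27955567-27958163). Of its 50-base words, 95.5% were also under some control peak of the genome. The widest control-only peak was 3506 bases at chr20:26865899-26869404, 4.72 kb from an ERCC6L2-/- peak. The widest shared peaks, 6234 bases in the control list (chr20:26503487-26509720) and 6200 bases in the ERCC6L2-/- list (chr20:26601676-26607875), were different places near the start of the array.

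**Figure D4:**
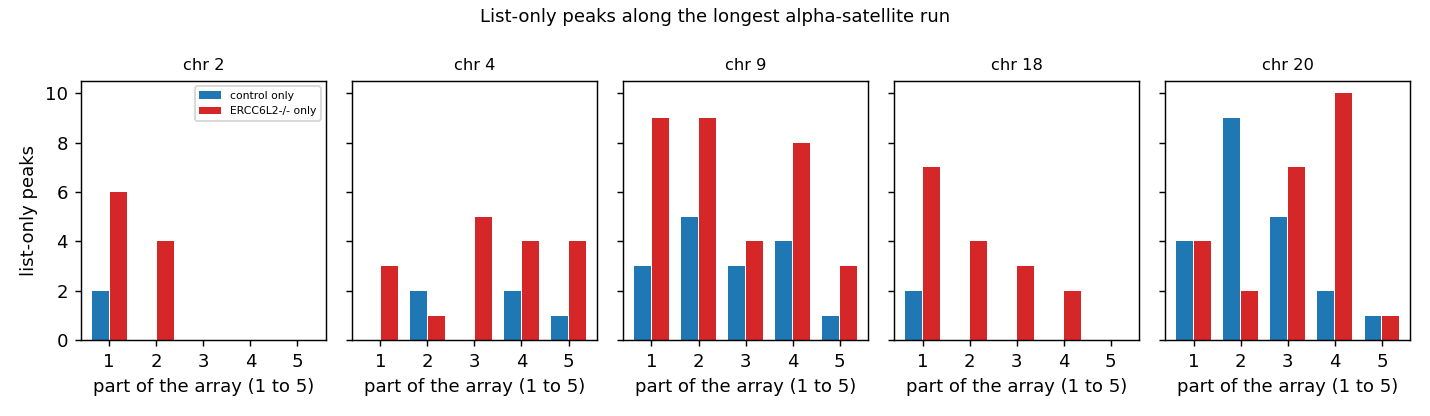
Number of list-only peaks in each of 5 equal parts of the longest alpha-satellite run, from its lower to its higher coordinate, for control (blue) and ERCC6L2-/- (red). Chromosome 8, with 1 and 4 peaks, is not drawn. The bars of chromosome 20 change order between the second and the fourth part, and those of chromosome 2 end after the second.

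Chromosome 9 had the most knockout-only peaks, 34, and 33 of these were in alpha-satellite. They were interleaved with control peaks. Their median gap to a control peak within the array was 14.9 kb, and 18 of the 33 had at least 90% of their words under control peaks. In the 5 parts, knockout-only peaks numbered 9, 9, 4, 8 and 3, and control-only peaks 3, 5, 3, 4 and 1. The widest knockout-only peak was 3559 bases (chr9:44676072-44679630, score 289, 10 boxes), and the widest control-only peak 1868 bases (chr9:44982040-44983907, score 141, 6 boxes). The widest shared peaks were 3108 bases in the control list (chr9:43345303-43348410, outside the array) and 3768 bases in the ERCC6L2-/- list (chr9:44325367-44329134, 9 boxes). Only 4 of 69 ERCC6L2-/- peaks and 4 of 52 control peaks were at the ceiling of the score, against 40 of 64 and 37 of 53 on chromosome 4. The longest row of knockout-only peaks was 4 over 61.6 kb (chr9:43641863-43703494), and 1 control peak, itself control-only, lay within the span.

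Chromosome 4 had the smallest control-only share among the 6, with 7 peaks. Its array was covered evenly, with 7, 7, 7, 8 and 8 control peaks and 10, 6, 12, 10 and 11 ERCC6L2-/- peaks in the 5 parts. Knockout-only peaks numbered 3, 1, 5, 4 and 4 in these parts, against 0, 2, 0, 2 and 1 control-only peaks. The widest knockout-only peak was 1860 bases (chr4:50848170-50850029, score 298, 4 boxes), and the widest control-only peak 1872 bases (chr4:51034654-51036525, score 107, 4 boxes). The longest row of knockout-only peaks was 3 over 25 kb (chr4:50531366-50556322), of which 2 were at the ceiling.

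Chromosome 2 had 10 knockout-only and 2 control-only peaks in alpha-satellite, and every peak of either list within its 1.9 Mb array lay in the first 2 of the 5 parts. The last 1265 kb of the array had no control peak and the last 1266 kb no ERCC6L2-/- peak. The longest row of knockout-only peaks was 4 over 112 kb (chr2:92623894-92735618), with 16 boxes. It held the widest knockout-only peak, 2834 bases (chr2:92652856-92655689, 9 boxes), which lay 89 kb from a control peak. The widest shared control peak was 2802 bases (chr2:92561087-92563888), and its ERCC6L2-/- counterpart was 2067 bases (chr2:92561294-92563360). The widest control-only peak, 1830 bases (chr2:94219555-94221384), was outside the array and held no box.

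On chromosome 8 no peak was shared. The control peak was 1540 bases (chr8:44446100-44447639, score 171.1). The 4 ERCC6L2-/- peaks were between 1427 and 2172 bases wide, the widest at chr8:44164720-44166891, with scores from 98.5 to 155. The nearest pair of the 2 lists was 21.5 kb apart. All 5 peaks carried a CENP-B box and lay in the first 2 of the 5 parts of the array, and 3 of the 4 knockout-only peaks had under 50% of their words under a control peak.

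The 6 centromeres were then set against alpha-satellite on the other autosomes and X, the question being whether the differences between lists at these centromeres were those of centromeres at large. Elsewhere 471 of 999 ERCC6L2-/- peaks were knockout-only (47.1%, 44.1 to 50.2%), against 106 of 235 here (45.1%, 38.9 to 51.5%), a difference of -2.04 percentage points (Fisher's exact test, p = 0.611). Elsewhere 74 of 602 control peaks were control-only (12.3%, 9.91 to 15.2%), against 47 of 176 here (26.7%, 20.7 to 33.7%), a difference of 14.4 points (Fisher's exact test, p = 9.89e-06). The regions were chosen with earlier results of these data known, so such p-values are not those of comparisons fixed beforehand. The test also takes the peaks of an array as independent, which was not tested. Most of the 47 were on chromosomes 20 (21 of 71, 29.6%) and 9 (16 of 48, 33.3%). Chromosome 4 had 5 of 39 (12.8%), near the share elsewhere, and chromosomes 2, 8 and 18 had 2 of 8, 1 of 1 and 2 of 9. Pooled, control-only peaks were therefore a larger share at these 6 centromeres than at the others, while for knockout-only peaks no difference was detected. The larger share was not particular to these centromeres. Among the others, alpha-satellite of the acrocentric chromosomes had 14 control-only peaks of 53 (26.4%, 16.4 to 39.6%). It had 46 knockout-only peaks of 85 (54.1%, 43.6 to 64.3%). The ratio of ERCC6L2-/- to control peaks was 1.34 (1.1 to 1.62) in alpha-satellite of the 6 regions and 1.66 (1.5 to 1.84) elsewhere. These 2 ratios were not tested against each other. Both comparisons changed at the ceiling of the score. There, control-only peaks were 3 of 62 here (4.84%) and 16 of 335 elsewhere (4.78%; Fisher's exact test, p = 1), whereas knockout-only peaks were 7 of 70 here (10%, 4.93 to 19.2%) and 199 of 581 elsewhere (34.3%, 30.5 to 38.2%; Fisher's exact test, p = 1.65e-05).

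The scores and widths are given beside these shares. In alpha-satellite of the 6 regions, 35.2% of control and 29.8% of ERCC6L2-/- peaks were at the ceiling, against 55.6% and 58.2% elsewhere. Their median widths were 1254 and 1220 bases, against 1703 and 1626 bases elsewhere. Shared peaks had a median of 1515 bases in the control list and 1473 bases in the ERCC6L2-/- list, and list-only peaks 1032 and 1077 bases. The part of score and width in the share of list-only peaks was not tested.

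CENP-B boxes were present under most peaks of either class. In alpha-satellite, 116 of 129 shared peaks of each list held a box (89.9%, 83.5 to 94%), as did 102 of 106 knockout-only peaks (96.2%, 90.7 to 98.5%) and 44 of 47 control-only peaks (93.6%, 82.8 to 97.8%). The differences of 6.3 and 3.69 percentage points did not pass (Fisher's exact test, p = 0.078 and p = 0.564). Of the 33 alpha-satellite peaks without a box, counted over both lists, 24 were on chromosome 20. Without that chromosome the knockout-only difference was -1.14 points (Fisher's exact test, p = 1). Boxes occurred 2.65 times per kb in knockout-only, 2.5 in control-only, 2.28 in shared control and 2.27 in shared ERCC6L2-/- peaks, and 2.41 times per kb over all alpha-satellite of the regions. None of the 103 peaks outside alpha-satellite held a box.

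The arrays differed in box density and spacing. Chromosomes 2 and 18 had 2.68 boxes per kb, chromosome 9 had 2.48, chromosome 4 had 2.45, chromosome 8 had 2.36 and chromosome 20 had 1.71. On chromosomes 18 and 9, 87.8% and 84.4% of boxes were 330 to 350 bases from the next, the length of a pair of monomers, as were 77.1% on chromosome 20, 69.2% on chromosome 2, 61.6% on chromosome 8 and 47.5% on chromosome 4. A spacing of 160 to 180 bases, or 1 monomer, was found for 16.9% of boxes on chromosome 4 and 0.74% on chromosome 9.

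In alpha-satellite the sequence under list-only peaks was highly repeated, and on most of these chromosomes it also lay under peaks of the other list. A 50-base word of an alpha-satellite peak had a median of 824 copies in the genome on chromosome 2, 394 on chromosome 4, 695 on chromosome 9, 215 on chromosome 18 and 494 on chromosome 20 (medians over peaks of both lists). Most copies were on the peak's own chromosome, with medians of 77.7% on chromosome 20, 81% on chromosome 2, 89.6% on chromosome 9, 92.7% on chromosome 4, 97.5% on chromosome 18 and 99.6% on chromosome 8. The other chromosome with the most copies was chromosome 4 for 79 of 112 peaks of chromosome 9, chromosome 9 for 57 of 90 peaks of chromosome 4, and chromosome 18 for 75 of 147 peaks of chromosome 20. A read from one such copy can be placed at another, and how such reads were handled is not stated. Of all 411 alpha-satellite peaks, 2 consisted mostly (90% or more) of words found once in the genome. They were 1 shared place, chr20:28897313-28898949 in the control list and chr20:28897358-28898933 in the ERCC6L2-/- list.

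For knockout-only peaks in alpha-satellite, the median share of words also found under control peaks was 95.2% on chromosome 20, 93% on chromosome 4, 90.4% on chromosome 9, 80.3% on chromosome 2, 37.1% on chromosome 18 and 27.4% on chromosome 8. For control-only peaks the share under ERCC6L2-/- peaks was 100% on chromosome 4, 94.6% on chromosome 20, 92.4% on chromosome 9, 84.8% on chromosome 18, 73.3% on chromosome 2 and 67.7% on chromosome 8. Control peaks in alpha-satellite covered 1.54 kb on chromosome 8, 10.4 kb on chromosome 2 and 11.5 kb on chromosome 18, against 38.4 kb, 72.4 kb and 116 kb on chromosomes 4, 9 and 20. The part of this cover in the shares of words was not tested.

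**Figure D5:**
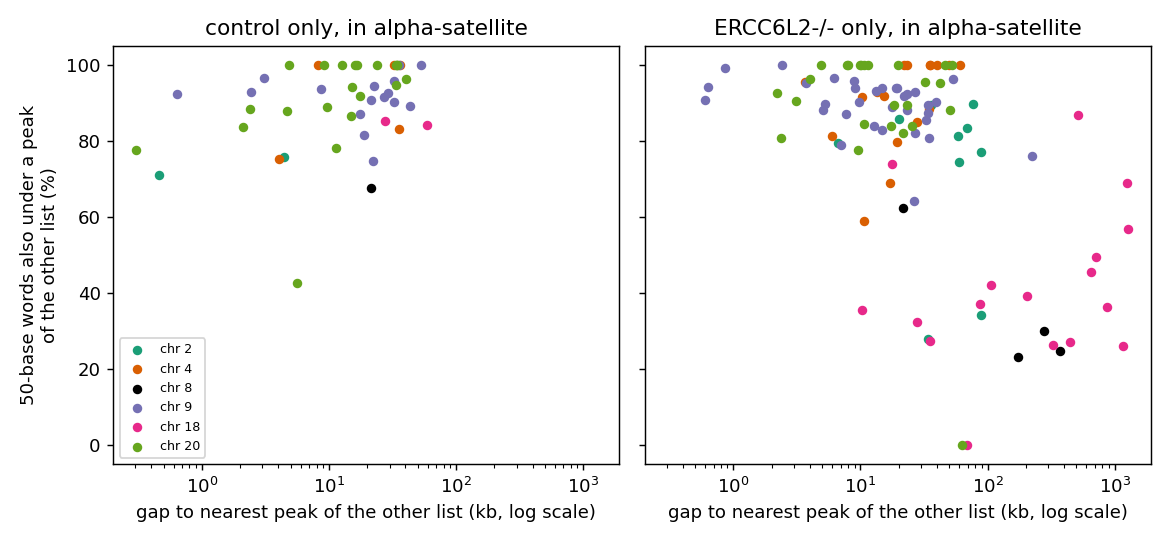
Each point is a list-only peak in alpha-satellite. The x axis is the gap in kb to the nearest peak of the other list (log scale), and the y axis is the percentage of its 50-base words that are also under a peak of the other list. Knockout-only peaks of chromosome 18 reach gaps of 1263 kb with words shared at 0 to 86.8%, while those of chromosomes 4, 9 and 20 lie within 100 kb except for 1 peak of chromosome 9.

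Shared peaks had nearly the same extent in both lists. In 167 places a single control peak met a single ERCC6L2-/- peak, and the bases in common were a median of 0.872 of those that the pair covered together. The ERCC6L2-/- peak was a median of 0.976 times as wide as the control peak (range 0.26 to 2.69) and was wider in 65 of 167. Chromosome 18 had the highest median ratio, 1.2 over 7 pairs, of which 5 were wider in the ERCC6L2-/- list. Edges differed by a median of 45 bases. The score was at the ceiling in both lists for 83 pairs and in 1 list only for 11 pairs each way. Of the 62 pairs below the ceiling in both lists, the control score was the higher in 31 and the ERCC6L2-/- score in 30.

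Outside alpha-satellite the regions held 56 control and 47 ERCC6L2-/- peaks, on chromosomes 2, 4, 9 and 20. Here 13 control peaks (23.2%, 14.1 to 35.8%) and 5 ERCC6L2-/- peaks (10.6%, 4.63 to 22.6%) were list-only, so the excess of knockout-only peaks in the regions lay in alpha-satellite. Over the genome the shares were 32.8% and 18.9%, higher than these but in the same order. On chromosome 20, 8 of 31 control peaks (25.8%) and 1 of 24 ERCC6L2-/- peaks (4.17%) were list-only, again in that order. Outside alpha-satellite the 13 control-only peaks had a median of 4.92% of their 50-base words under ERCC6L2-/- peaks. The 5 knockout-only peaks had a median of 10.6% under control peaks. A word had a median of 1 copy in the genome over the 103 peaks there. In all, 36 of the 103 peaks held 30 or more purines, or pyrimidines, in a row, 24 of them on chromosome 20, whereas no alpha-satellite peak did. The widest shared peak of the 6 regions lay on chromosome 4, 59738 bases in the control list (chr4:49091333-49151070) and 59937 bases in the ERCC6L2-/- list (chr4:49091334-49151270), in DNA with 111.6 GGAAT motifs per kb on either strand. This motif is the unit of human satellites 2 and 3, repeats that flank some centromeres.

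The 9 peaks outside alpha-satellite on chromosome 9 held the same motif at 46.1 to 53.1 per kb. The middle 150 bases of the widest shared ERCC6L2-/- peak among them (chr9:43342320-43344959) are shown, chosen after the motif had been counted, to set this DNA beside the monomers above. The 9 motifs, read as GGAAT or its complement ATTCC, are in capitals, on the plus strand of hg38.
chr9:43343565-43343714: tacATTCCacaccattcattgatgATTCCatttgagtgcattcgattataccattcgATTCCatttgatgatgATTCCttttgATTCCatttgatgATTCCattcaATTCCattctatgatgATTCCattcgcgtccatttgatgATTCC
Of these 9 peaks, 8 were shared, 4 in each list, and 1 was knockout-only.

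One member peak overlapped a protein-coding gene. It was a control-only peak of 493 bases (chr4:51851299-51851791, score 299) in DCUN1D4, which spans chr4:51843000-51916837 and encodes a protein of the DCUN1 domain family that acts in cullin neddylation. All of its 50-base words were single-copy. Of other annotated genes, named after the overlaps were seen, FAM182B and FAM182A are lncRNA genes, both of them on chromosome 20. FAM182B was met by 2 control-only peaks and FAM182A by 1 shared peak of each list. Of the lncRNA genes of chromosome 20 without a symbol, ENSG00000287211 was met by 1 knockout-only peak, ENSG00000287288 by 1 control-only peak and ENSG00000291100 by 1 shared peak of each list. On chromosome 2 the pseudogene CHEK2P3 was met by 1 shared peak of each list.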

How the data were processed

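Per the labels, nascent DNA was sequenced in 3 control and 3 ERCC6L2-/- samples after a BrdU pulse. The authors trimmed reads with TrimGalore, aligned them to hg38 with BOWTIE2, removed duplicates with Picard, called peaks per sample with MACS2 and merged the 3 replicates with MSPC. The deposited consensus lists give positions and a score, the −log10 of the p-value. The deposited unique lists give positions only, another kind of value, and equal the peaks without a shared base recomputed here. Tool versions and the handling of multiply mapping reads are not given in the sources used here. The 105 control and 89 ERCC6L2-/- peaks on contigs not in the reference used here lie outside the regions.

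Sequence was read from hg38 with pysam 0.24.0. Alpha-satellite was found from 19 arrays of at least 500 kb with 50% identity 1 monomer downstream. Windows of 1000 bases with at least 10% of their 12-base words among the 1000 most frequent in these arrays were joined over 10 kb and kept from 10 kb, which gave 144 runs. Genes came from GENCODE release 44. Fisher's exact tests (scipy) were two-sided, with Benjamini-Hochberg adjustment over 15 pairs of chromosomes. Box, array, word and overlap counts were tested on simulated data. The regions, classes and lists were chosen with earlier results of these data known. Peaks named are, per chromosome, the widest shared and list-only peak of each list and the longest row of knockout-only peaks at gaps up to 100 kb, with the protein-coding genes any member overlaps. The alternatives were an overlap of 50%, a gap of 1 kb, the score ceiling, chaining at 10 kb, alpha-satellite only, no acrocentric chromosomes, box settings, bases in place of peaks, and each chromosome left out.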

Additional observations from a re-analysis of the deposited data

How the results depend on the processing

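No paired analysis was possible because each genotype has 1 merged list, so the alternative of dropping a replicate could not be run either. With an overlap of 50%, the control-only share was 31.9% and the knockout-only box difference 7.72 points (Fisher's exact test, p = 0.0249). At the score ceiling, the list-only shares were 9.35% (control) and 7.69% (ERCC6L2-/-), the ratio of peak numbers 0.972, the ERCC6L2-/- pairs of chromosomes that differed 0 of 10, and the differences from other alpha-satellite 0.0626 points (control; Fisher's exact test, p = 1) and -24.3 points (ERCC6L2-/-). The ERCC6L2-/- pairs that differed, 5 of 15 as reported, were 2 in alpha-satellite alone, 4 with peaks chained at 10 kb, 6 with an overlap of 50% and 5 with a gap of 1 kb. With each chromosome left out, the control-only share ran from 23.8 to 29.6%, the knockout-only share from 36.2 to 46.7% (highest without chromosome 20), the ratio from 1.16 to 1.4, the control difference from other alpha-satellite from 11.9 to 18.4 points and the ERCC6L2-/- one from -4.97 to 3.8 points, positive without chromosome 4 (1.22) or 20. The box difference ran from -1.14 to 9.16 points (ERCC6L2-/-; 8.21 without chromosome 4, Fisher's exact test, p = 0.05) and from -0.0487 to 6.82 points (control), negative without chromosome 20. The causes were not tested. In the Fisher comparisons with other alpha-satellite and of boxes, the other alternatives kept the direction and the side of the threshold. Depth is unknown, and few peaks limit chromosomes 2, 8 and 18.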
